A study of Mus musculus with 12 samples.

Results

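The 10 genes described here encode the Greatwall switch of mitosis: the kinase Mastl, its substrates Ensa and Arpp19, and the phosphatase that these substrates inhibit, PP2A with a B55 regulatory subunit. The phosphatase is built from a catalytic subunit (Ppp2ca or Ppp2cb), a scaffold subunit (here Ppp2r1a) and a B55 subunit (Ppp2r2a, Ppp2r2b, Ppp2r2c or Ppp2r2d). The genes were taken by symbol from a table of 34102 genes, and all 10 were in the table and passed the filter on low counts in both systems below. The set was chosen by the measured fall of Ensa in the cortex comparison, around which the known partners of Ensa were listed. The change of each of the 10 genes in the cortex is therefore given as a description, with no p-value. The tests are of the change in cell culture and, for the 9 genes other than Ensa, of the difference between the changes in culture and cortex.

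The study asked what loss of the splicing factor Srsf10 does to gene expression in mouse neural tissue, by RNA sequencing of 12 libraries in 4 groups of 3. All were from the C57BL/6 strain. In the cortex, both groups carried Srsf10 flox/flox alleles, and the groups labelled control and cKO differed in Nestin-Cre, which was absent from the controls (Nestin-Cre-) and present in the cKO (Nestin-Cre+). Nestin-Cre is a recombinase driven in neural progenitors, so that their descendants carry the deletion and blood vessel, blood and immune cells largely do not, and there was no group with Cre and no floxed allele. The other groups were primary cultured neural progenitor cells (NPC) from cortex, labelled WT (here NPC control) and SRSF10 knockdown. The cultures grew in suspension with bFGF and EGF, the knockdown used a lentivirus at an MOI of 30, and RNA was taken 72 h after infection. Whether the control cultures received a virus, the age of the animals and whether replicates came from separate animals or cultures are not given in the labels, so p-values measure only the spread between these samples. The sex of each library was read only from Ddx3y, with over 10 CPM taken as male. By that rule cortex controls held 2 male and 1 female libraries, and each other group 1 male and 2 female. Replicates of a group differed by more than counting noise.

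The libraries held 26074094 to 36713205 counts. Srsf10, the targeted gene, was at 211 ± 20.8 counts scaled to library size (CPM) in the libraries labelled cKO and 206 ± 11.5 in controls (SD, n = 3). In NPC it was at 239, 220 and 217 CPM in the libraries labelled knockdown and 248, 227 and 223 CPM in controls, slightly lower in each pair, with a log2 fold change of -0.05 that did not pass edgeR's quasi-likelihood test (adjusted p = 0.774, and 0.530 with the replicate block). The labels are used below with that limit. Summed markers fitted the labelled samples: neuronal genes (Tubb3, Dcx, Map2, Tbr1 and Snap25) summed to 6886 to 7276 CPM in cortex and 1017 to 1329 CPM in NPC, and progenitor genes (Nes, Sox2, Vim, Hes5 and Pax6) to 356 to 427 CPM in cortex and 5509 to 6712 CPM in NPC. Sums for cycling cells, choroid plexus, meningeal fibroblasts, erythroid cells, microglia and endothelium, like those for neurons and progenitors, overlapped between the groups in cortex. In NPC the endothelial sum did not overlap (15.1 to 20.1 CPM in controls and 9.3 to 11 CPM in knockdown), and the others did. Most of that endothelial sum was Flt1, at 14.6 ± 2.79 CPM in controls and 6.59 ± 1.26 CPM in knockdown. The means of Pecam1 (0.31 and 0.49 CPM), Kdr (2.83 and 2.86 CPM) and Cdh5 (0.013 and 0.057 CPM) were not lower in knockdown. Cldn5 was at 0.10 and 0 CPM. Choroid plexus markers were unevenly spread in cortex, and control replicate 2 and cKO replicate 3 each held over 1000 CPM of Ttr.

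Mastl, known as Greatwall, is switched on by Cdk1 as a cell enters mitosis. It phosphorylates Ensa and Arpp19, small proteins that then bind and inhibit PP2A-B55, so that the phosphorylations placed by Cdk1 last until mitotic exit. Dividing neural progenitors use this switch at each division, while in neurons, which do not divide, PP2A-B55 acts on other substrates, and Ppp2r2b and Ppp2r2c are known as the brain-enriched B55 genes.

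Ensa and Arpp19 are recognised by Mastl through one conserved stretch, which is shown because it is what the substrates share. The 30 bases below are from the coding exons of both genes in build GRCm38 (mm10), on the plus strand, and the capitals mark the serine codon that Mastl phosphorylates. In Ensa the site lies in exon 3 at chr3:95628544-95628573, and in Arpp19 in exon 4 at chr9:75056638-75056667.
Ensa: aagtactttgacTCAggagactacaacatg
Arpp19: aagtattttgatTCTggggactacaacatg
These differed at 4 of 30 bases and encode the same residue at all 10 codons. Over the whole coding sequence the paralogues were 74.9% identical, and their longest shared run was 20 bases. No run of 100 bases in the transcripts of Ensa or Arpp19 was found in another gene's transcripts, so reads of that length from either gene could not have come from the other.

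The promoters of Ensa and Mastl are shown because these were the members with the widest differences in the cortex. Both are the 250 bases before the annotated start, from RefSeq on GRCm38.p6 and written in the direction of the gene: chr3:95624730-95624979 on the plus strand for Ensa and chr2:23156025-23156274 on the minus strand for Mastl. Capitals mark the CCAAT box, found here on the opposite strand as ATTGG.
Ensa: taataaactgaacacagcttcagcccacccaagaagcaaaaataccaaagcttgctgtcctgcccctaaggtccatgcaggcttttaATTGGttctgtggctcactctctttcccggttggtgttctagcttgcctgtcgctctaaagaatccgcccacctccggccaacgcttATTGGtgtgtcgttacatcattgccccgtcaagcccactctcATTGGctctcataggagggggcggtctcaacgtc
Mastl: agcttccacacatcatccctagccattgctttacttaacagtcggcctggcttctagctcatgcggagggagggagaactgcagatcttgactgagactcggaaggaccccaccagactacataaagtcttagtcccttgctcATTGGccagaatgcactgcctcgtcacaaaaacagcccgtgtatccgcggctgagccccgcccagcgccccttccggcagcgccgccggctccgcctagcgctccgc
CCAAT, searched on both strands, occurred 3 times in the Ensa window and 1 time in the Mastl window. Of 32851 mouse promoter windows of the same length, 33.8% held at least 1 match and 2.79% held at least 3. TTTGAA, the cell cycle homology region motif, was in neither window and in 16% of all windows.

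Ensa, the first of the Mastl substrates, lies on chromosome 3 (95624993 to 95632102, plus strand). In cortex its level was 168, 155 and 163 CPM in control replicates 1 to 3 and 102, 105 and 103 CPM in cKO replicates 1 to 3. The groups lay far apart, and the cKO mean was 63.8% of the control mean. The log2 fold change was -0.65 with an SE of 0.06 and a 95% interval of -0.78 to -0.52, and it was -0.68 without the libraries rich in Ttr. This is the fall that chose the set, so it has no test here. In whole tissue, fewer cells expressing a gene and less RNA per cell cannot be told apart.

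In NPC, Ensa did not show the fall. Its level was 126, 122 and 118 CPM in the controls and 123, 119 and 128 CPM in the knockdown, and the ranges of the groups overlapped. The log2 fold change was 0.02 (95% interval -0.12 to 0.16, adjusted p = 0.918 by edgeR's quasi-likelihood test with Benjamini-Hochberg adjustment). The difference between the changes in NPC and cortex was 0.68, a description only, since the cortex value chose the set.

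Arpp19, the paralogue with the same Mastl site on chromosome 9 (75037614 to 75060313, plus strand), did not share the cortex pattern of Ensa. In cortex it was at 232, 226 and 220 CPM in controls and 221, 217 and 217 CPM in cKO, with overlapping groups and a log2 fold change of -0.05 (-0.18 to 0.08). In NPC its level was 124, 117 and 116 CPM in controls and 124, 127 and 130 CPM in knockdown. Each knockdown library lay above all controls, but the lowest knockdown and the highest control were nearly level, and the log2 fold change of 0.09 (-0.04 to 0.23) did not pass edgeR's quasi-likelihood test (adjusted p = 0.433, and 0.218 with the replicate block). Without pair 1 the blocked value was 0.14 and passed (adjusted p = 0.0373, edgeR).

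The share of Ensa among the substrates was lower in cKO cortex. On a scale of CPM per kilobase of exon (RPKM), Ensa made up 39.9% ± 0.97 (SD, n = 3) of the summed level of Ensa and Arpp19 in control cortex and 30.5% ± 0.56 in cKO cortex. In NPC the share was 48.4%, 49.1% and 48.6% in controls and 47.9%, 46.3% and 47.8% in knockdown. All knockdown libraries were lower, and the mean difference was -1.37 percentage points. A two-sided exact permutation test gave p = 0.1, the smallest that 3 against 3 allow (adjusted p = 0.2 over 6 shares).

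**Figure D1:**
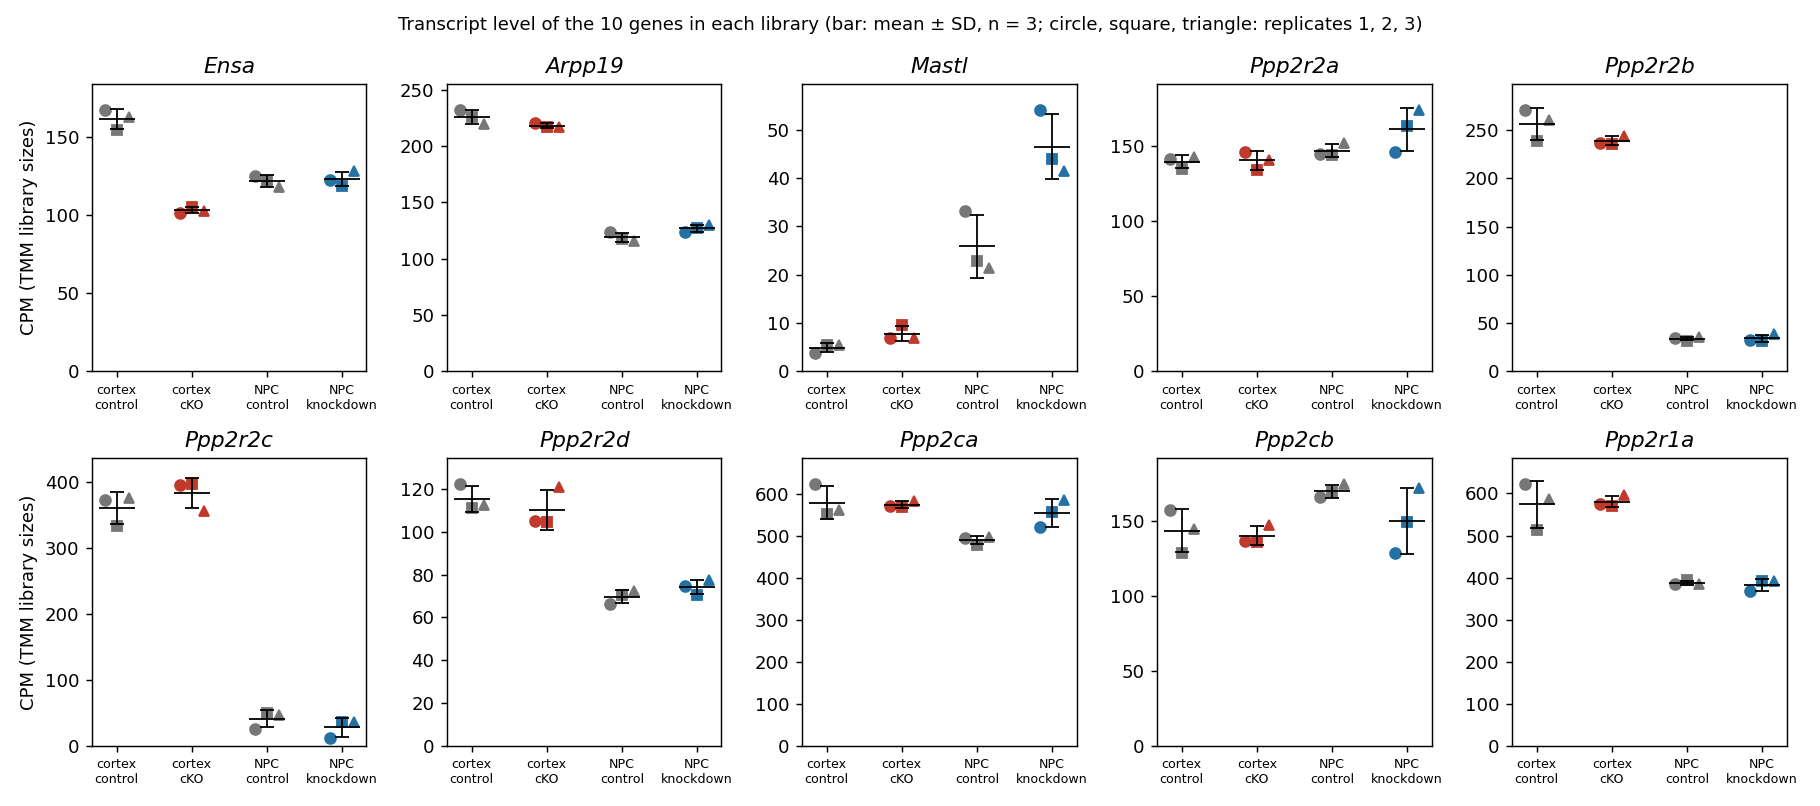
Level of each of the 10 genes in CPM (vertical axis, from 0) in every library of the 4 groups, with bars for mean ± SD (n = 3) and the replicate number given by the symbol. Ensa lies between 102 and 105 CPM in cKO cortex against 155 to 168 CPM in control cortex, and Mastl is higher in every knockdown library than in every NPC control.

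Mastl, the kinase, was the member with the highest log2 fold change in both systems. It lies on chromosome 2 (23115606 to 23156024, minus strand). In NPC its level was 33.2, 22.9 and 21.4 CPM in control replicates 1 to 3 and 54.1, 43.8 and 41.4 CPM in knockdown replicates 1 to 3. Every knockdown library lay above every control library, and replicate 1 was the highest of both groups. The knockdown mean was 180% of the control mean.

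The log2 fold change of Mastl in NPC was 0.85 with an SE of 0.18 (0.42 to 1.27), and it missed the threshold of 0.05 without the replicate number in the model (adjusted p = 0.0686, edgeR's quasi-likelihood test). Same-numbered NPC libraries deviated together, so the number pairs them. With the number as a block the change was 0.86 with an SE of 0.07 (0.71 to 1.01), and Mastl rose (adjusted p = 2.64e-06, edgeR with the replicate block). The log2 ratios of the 3 pairs were 0.70, 0.94 and 0.95. DESeq2 without the block also called it (adjusted p = 0.000381). Unblocked edgeR called it with no filter on low counts and in one fit of all 12 libraries, but not with RLE factors. With a library left out, it was called only without NPC control replicate 1, the highest control (1.07, adjusted p = 0.0372, unblocked edgeR).

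In cortex Mastl was a low gene, with 140 to 328 counts in a library. Its level was 3.90, 5.49 and 5.40 CPM in controls and 6.84, 9.54 and 7.0 CPM in cKO. All cKO libraries lay above all controls. The log2 fold change was 0.66 with an SE of 0.20 (0.21 to 1.12), and it ranged from 0.49, without cKO replicate 2, to 0.82, without the libraries rich in Ttr. The difference between the NPC and the cortex change of Mastl was 0.20 (-0.41 to 0.80) and did not pass edgeR's quasi-likelihood test (adjusted p = 0.812).

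Mastl is expressed in dividing cells, and markers of cycling cells (Mki67, Top2a, Ccnb1, Cdk1 and Aurkb, all 5 detected in every library) moved with it in NPC. Their summed level was 1557, 1133 and 881 CPM in controls and 2139, 1565 and 1320 CPM in knockdown, higher in the knockdown library of each pair. Mastl per 100 CPM of that sum was 2.13, 2.02 and 2.43 CPM in controls and 2.53, 2.80 and 3.14 CPM in knockdown, so the ratio was also higher in every knockdown library. In cortex the sum overlapped between groups, at 141 to 170 CPM in controls and 145 to 180 CPM in cKO. There the ratio was 2.64 to 3.83 CPM in controls and 4.23 to 5.31 CPM in cKO, again without overlap. The part of the share of cycling cells in the level of Mastl was not tested beyond these ratios.

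**Figure D2:**
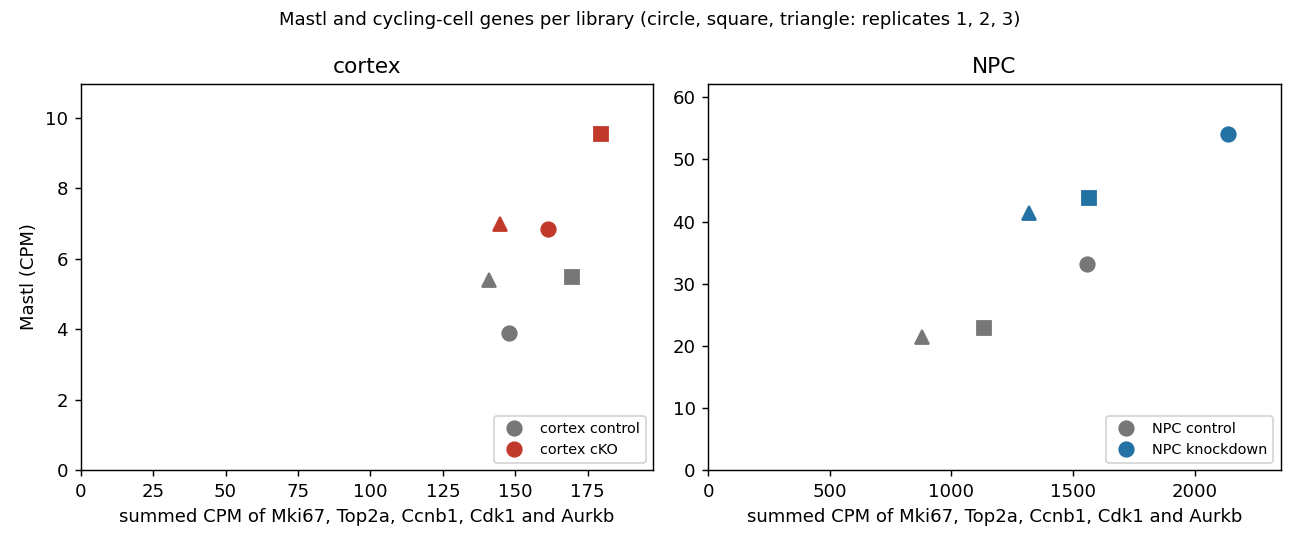
Mastl (vertical axis, CPM) against the summed level of 5 cycling-cell genes (horizontal axis, CPM) in each cortex library (left) and each NPC library (right), all axes starting at 0. In NPC both values are higher in the knockdown library of each pair. In both systems Mastl is higher in every treated library than in every control, while the marker sums of the groups overlap in part.

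The B55 genes lie on chromosomes 14 (Ppp2r2a, 67014056 to 67072444), 18 (Ppp2r2b), 5 (Ppp2r2c, 36868513 to 36955078) and 7 (Ppp2r2d, 138846079 to 138883057). Ppp2r2a, a widely expressed member, was at 145, 144 and 152 CPM in NPC controls and 146, 164 and 174 CPM in knockdown. The groups overlapped at their edge, and the log2 fold change was 0.13 (-0.05 to 0.31, adjusted p = 0.402 by edgeR's quasi-likelihood test, and 0.0933 with the replicate block). Ppp2r2d was at 66.2 to 72.2 CPM in controls and 70.6 to 77.4 CPM in knockdown, a change of 0.09 (adjusted p = 0.513 by edgeR). Ppp2r2b was at 31.9 to 35.6 CPM in controls and 31.7 to 38.6 CPM in knockdown, a change of 0.01 (-0.22 to 0.24, adjusted p = 0.982 by edgeR). None of these 3 genes passed with all libraries in the fit, with or without the block. Without pair 1, Ppp2r2a passed with the block (0.19, adjusted p = 0.00215, edgeR).

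Ppp2r2c was the only B55 gene called in NPC with the replicate block and all libraries in the fit. Its level was 26.1, 49.9 and 47.4 CPM in control replicates 1 to 3 and 11.6, 36.0 and 35.8 CPM in knockdown replicates 1 to 3. Replicate 1 was the lowest in both groups, so that the groups overlapped while each knockdown library lay below the control of the same number. The log2 ratios of the pairs were -1.17, -0.47 and -0.40. Without the block the change was -0.56 with an SE of 0.42 (adjusted p = 0.534, edgeR's quasi-likelihood test). With the replicate block it fell by 0.63 on the log2 scale, with an SE of 0.11 (adjusted p = 0.000992, edgeR). It was called with each pair left out, at -0.44 without replicate 1, -0.74 without replicate 2 and -0.77 without replicate 3. The neuronal markers did not all differ in one direction. Nearly all of their sum was Map2, at 1048 ± 57.2 CPM in controls and 1164 ± 128 CPM in knockdown (SD, n = 3), while Tubb3 was at 12.5 ± 1.25 and 10.4 ± 1.42 CPM and Dcx at 9.66 ± 3.38 and 8.60 ± 2.79 CPM. Tbr1 and Snap25, also on the list, made up only a small rest of the sum. Tubb3 was lower in the knockdown library of each pair. The sum of all 5 neuronal markers was higher in each, at 1017, 1124 and 1085 CPM in controls and 1079, 1329 and 1159 CPM in knockdown. The part of neuronal cells in the level of Ppp2r2c was not tested.

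In cortex the B55 genes lay near no change. The log2 fold changes were 0.01 for Ppp2r2a, -0.10 for Ppp2r2b, 0.09 for Ppp2r2c and -0.06 for Ppp2r2d, and each 95% interval held 0. Ppp2r2c was at 333 to 376 CPM in controls and 357 to 397 CPM in cKO. The difference between the NPC and the cortex change of Ppp2r2c was -0.63 (adjusted p = 0.577, edgeR's quasi-likelihood test) and -0.73 with the replicate block (adjusted p = 0.0525), and passed in neither. The block in that fit also paired the cortex libraries by number, though same-numbered cortex libraries did not deviate together.

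The make-up of the B55 group differed between tissue and culture, described here on the RPKM scale as shares of the 4 genes within each library. In control cortex Ppp2r2c made up 42.5% of the summed level, Ppp2r2b 33.7%, Ppp2r2a 13.6% and Ppp2r2d 10.2%. In control NPC the order was Ppp2r2a with 48.2%, Ppp2r2d with 20.7%, Ppp2r2c with 16.1% and Ppp2r2b with 15.0%, though in replicate 1 Ppp2r2b (16.3%) lay above Ppp2r2c (11.1%). The subunits known as brain-enriched thus held most of the B55 level in cortex and the lesser part in NPC. Within NPC the share of Ppp2r2a was 51.2%, 46.2% and 47.0% in controls and 53.8%, 52.1% and 51.3% in knockdown. All knockdown libraries lay above all controls, by 4.21 percentage points on average (exact permutation p = 0.1, the smallest possible, adjusted p = 0.2 over 6 shares). The shares depend on the length taken for each gene. With the longest coding transcript in place of merged exons the difference for Ppp2r2a was 2.57 points, and Ppp2r2b (38.7%) led Ppp2r2c (30.3%) in control cortex. In control NPC the share of Ppp2r2d was then 35.2%, near the 38.6% of Ppp2r2a, and Ppp2r2b (15.7%) led Ppp2r2c (10.5%).

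**Figure D3:**
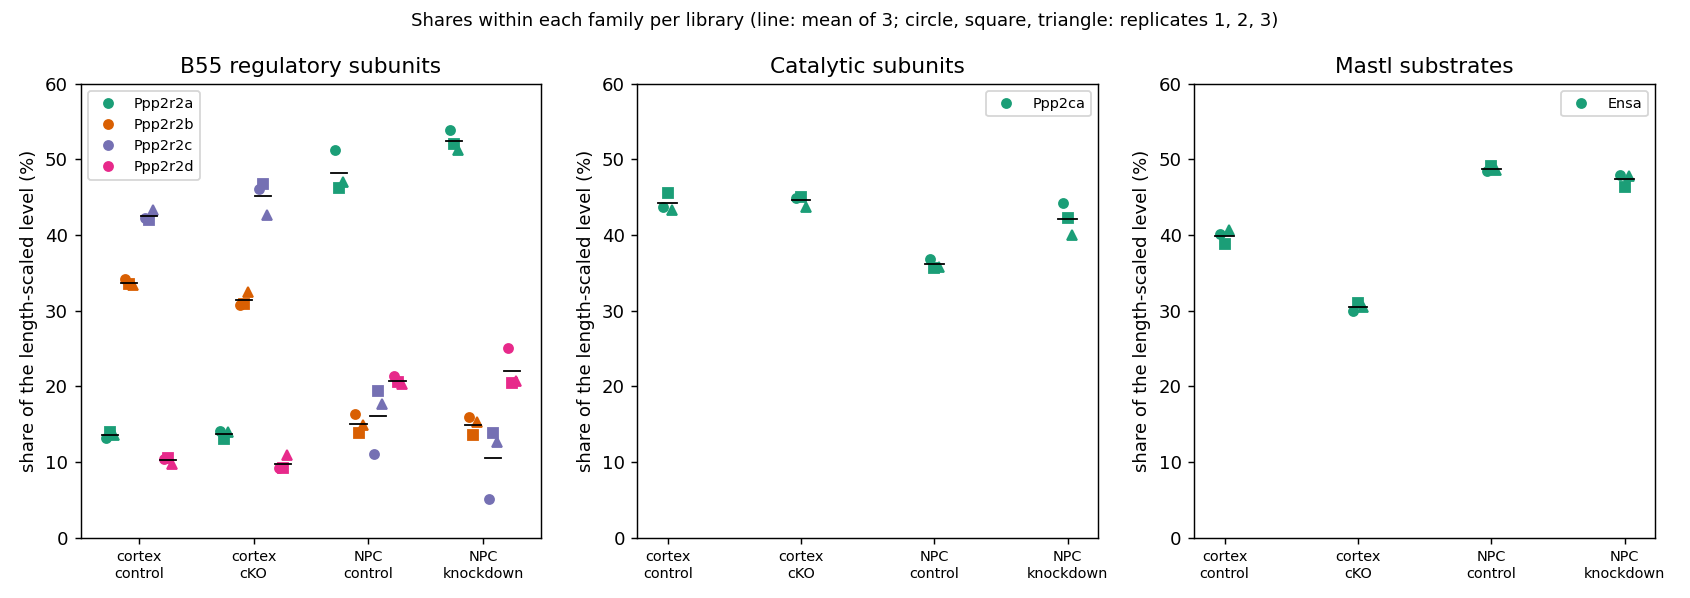
Share of the summed length-scaled level (percent, vertical axis) held by each of the 4 B55 genes, by Ppp2ca within Ppp2ca plus Ppp2cb, and by Ensa within Ensa plus Arpp19, in every library (symbols by replicate, line at the mean of 3). Ppp2r2c and Ppp2r2b lead in cortex and Ppp2r2a in NPC, and the Ensa share is lower in cKO cortex than in control cortex.

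With the replicate block, the catalytic subunits moved in opposite directions in NPC, though neither call held in every fit. Ppp2ca, the catalytic alpha gene on chromosome 11 (52098681 to 52127778, plus strand), was at 494, 479 and 496 CPM in controls and 520, 556 and 586 CPM in knockdown. All knockdown libraries lay above all controls. The log2 fold change was 0.18 (0.02 to 0.33), which did not pass without the block (adjusted p = 0.222) and passed with it (adjusted p = 0.0232, edgeR's quasi-likelihood test). The blocked call ended without pair 2 (0.16, adjusted p = 0.264, edgeR) and without pair 3 (0.15, adjusted p = 0.143, edgeR).

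Ppp2cb, the catalytic beta gene on chromosome 8 (33599625 to 33619441, plus strand), was at 166, 169 and 175 CPM in NPC controls and 128, 149 and 172 CPM in knockdown. The highest knockdown library lay among the controls, and replicate 1 showed the widest gap. The log2 fold change was -0.18 (adjusted p = 0.409) and -0.19 with the replicate block (adjusted p = 0.0413, edgeR's quasi-likelihood test). The blocked call ended without pair 1 (-0.10, adjusted p = 0.145, edgeR), without pair 2 (-0.19, adjusted p = 0.124, edgeR) and in DESeq2 with the block (adjusted p = 0.0594).

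The Ppp2ca share of the catalytic pair, on the RPKM scale, was 36.9%, 35.7% and 35.8% in NPC controls and 44.2%, 42.2% and 40.0% in knockdown. It was higher in every knockdown library, by 6.04 points on average (exact permutation p = 0.1, the smallest possible, adjusted p = 0.2 over 6 shares). In cortex the share was 44.2% ± 1.23 in controls and 44.6% ± 0.75 in cKO (SD, n = 3), and the cortex log2 fold changes were -0.01 for Ppp2ca and -0.04 for Ppp2cb. Of the 100-base runs in Ppp2ca transcripts, 38% also occur in overlapping annotated transcripts, nearly all of them in an antisense RNA that has no row in the table. Without knowledge of how strand was counted, reads of Ppp2ca and of that RNA cannot be told apart.

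Ppp2r1a, the scaffold subunit on chromosome 17 (20945311 to 20965916, plus strand), did not pass the test in NPC. It was at 385, 393 and 384 CPM in NPC controls and 367, 391 and 391 CPM in knockdown, with a log2 fold change of -0.02 (-0.15 to 0.12, adjusted p = 0.911 by edgeR's quasi-likelihood test). In cortex its change was 0.02 (-0.16 to 0.19), with 513 to 622 CPM in controls and 570 to 597 CPM in cKO.

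**Figure D4:**
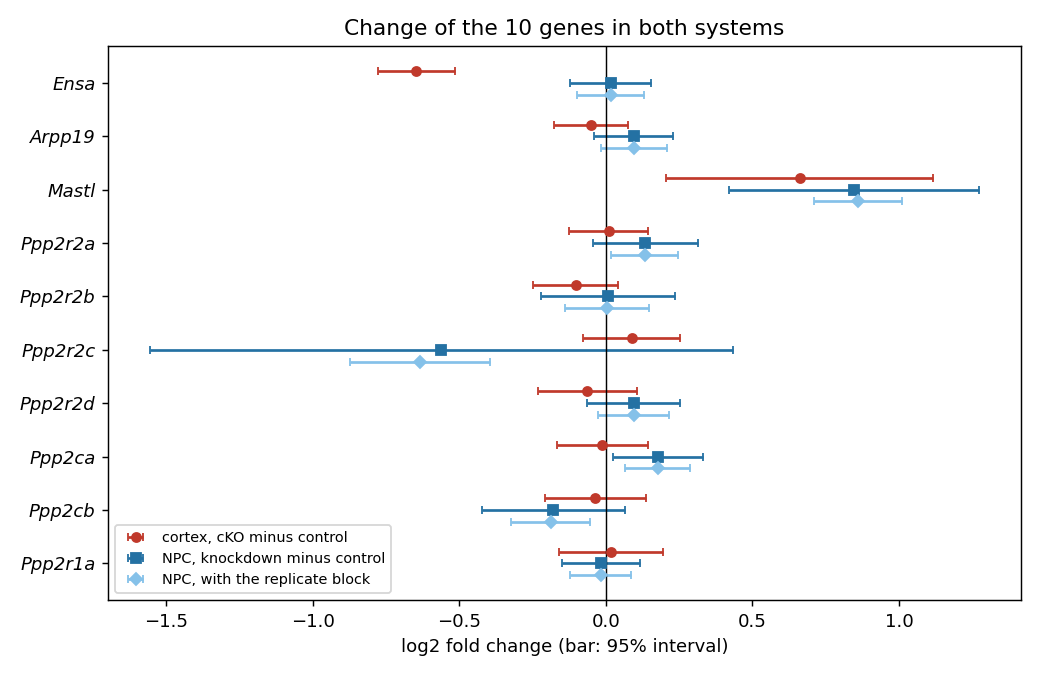
Log2 fold change (horizontal axis) of the 10 genes with 95% intervals for cortex (cKO minus control) and for NPC (knockdown minus control) without and with the replicate block. Ensa stands at -0.65 in cortex and 0.02 in NPC, Mastl lies above 0 in both systems, and the block narrows the interval of Ppp2r2c.

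Counted over the set, 0 of 10 genes passed in NPC without the block, where edgeR called 1.89% of 14258 genes. At an unadjusted p under 0.05 there were 2 genes, Mastl and Ppp2ca, near the 18.3% of all genes, and DESeq2, which called 4.34% of all genes, called 1, Mastl. With the block 4 of 10 passed (Mastl and Ppp2ca higher, Ppp2cb and Ppp2r2c lower), where 24.7% of all genes did, 11.9% higher and 12.8% lower. Groups did not overlap for 3 of 10 genes, all higher in knockdown (Arpp19, Mastl and Ppp2ca), where 23.4% of all genes did not overlap in either direction and 10.6% did not and were higher. In cortex 1 of 10 genes, Ensa, was called by edgeR, where 0.171% of 15781 genes were, and groups did not overlap for 2, Ensa and Mastl, where 17.3% of all genes did not overlap. Nothing is read from these counts because the comparison chose the set. Of the 9 genes other than Ensa, 0 differed between the NPC and the cortex change by edgeR's test of the difference, where 1.46% of 16569 genes did. None of these 9 had an unadjusted p under 0.05 in that test, where 14.2% of all genes did, and DESeq2 also called 0 of them.

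Levels were ordered on the RPKM scale, over merged exons and within each system. In control cortex Ppp2r1a was highest (168 ± 16.3 RPKM, SD, n = 3), then Ppp2cb (97.8 ± 9.75), Ppp2r2c (81.1 ± 5.38), Ppp2ca (77.3 ± 5.15), Ppp2r2b (64.3 ± 4.19), Arpp19 (45.6 ± 1.24), Ensa (30.3 ± 1.23), Ppp2r2a (26.0 ± 0.79), Ppp2r2d (19.5 ± 1.04) and Mastl (0.85 ± 0.15). Only the libraries of Ppp2r2c and Ppp2ca overlapped among neighbours. In cKO cortex Ensa stood at 19.3 ± 0.37 RPKM, below Ppp2r2a (26.1 ± 1.17) and level with Ppp2r2d (18.7 ± 1.58).

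In control NPC the order was Ppp2cb (116 ± 3.04 RPKM) and Ppp2r1a (114 ± 1.41), whose libraries overlapped, then Ppp2ca (65.4 ± 1.28), Ppp2r2a (27.3 ± 0.80), Arpp19 (24.0 ± 0.85) and Ensa (22.8 ± 0.70), the last pair overlapping. Ppp2r2d (11.8 ± 0.52), Ppp2r2c (9.24 ± 2.94), Ppp2r2b (8.51 ± 0.47) and Mastl (4.47 ± 1.11) followed, and the libraries of Ppp2r2c and Ppp2r2b overlapped. In knockdown NPC Mastl reached 8.04 ± 1.16 RPKM, level with Ppp2r2b (8.55 ± 0.98) and overlapping Ppp2r2c (6.24 ± 3.15). Mastl was thus the lowest of the 10 genes in 3 of the 4 groups and not in knockdown NPC. With the longest coding transcript as length, Ppp2r2b stood second in control cortex (113 RPKM), and Ppp2r2d passed Ensa in control cortex (55.3 against 42.1 RPKM) and in control NPC (33.4 against 31.7 RPKM). In cKO cortex Ppp2r2d was then at 52.9 RPKM and Ensa at 26.9 RPKM, so that they were no longer level. In control NPC Ppp2r1a (161 RPKM) then led Ppp2cb (116 RPKM), Ensa passed Arpp19 (29.4 RPKM), and Ppp2r2b (14.9 RPKM) passed Ppp2r2c (10.1 RPKM).

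The other genes around the switch were taken from a list of 50 symbols in 9 roles, of which 46 were in the table. In NPC without the block, 0 of 46 were called by edgeR, 14 had an unadjusted p under 0.05, against 18.3% of all genes, and DESeq2 called 4 (Bora, Cdc25c, Fzr1 and Ppme1). With the replicate block 21 rose and 4 fell by edgeR's quasi-likelihood test, in a fit that called 11.9% of all genes higher and 12.8% lower. The median log2 fold change was 0.10 over the list and 0.00 over all genes tested. In cortex 0 of 46 were called, 3 had an unadjusted p under 0.05, against 10.9% of all genes, and the median was -0.00 over the list and 0.00 over all genes.

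Cdk1 and its cyclins, which drive mitotic entry and switch Mastl on, shared a role on the list with Cdk2, which is neither. In NPC with the block 5 of 5 genes of this role rose, in a fit that called 11.9% of all genes higher. Their median log2 fold change was 0.45, and edgeR without the block called 0 of them. Cdk1 itself changed by 0.44 (adjusted p = 0.000247 with the block and 0.264 without it, edgeR). Ccnb1, the main mitotic cyclin, changed by 0.50 (adjusted p = 3.21e-05 with the block, 0.294 without, edgeR), Ccnb2 by 0.59 and Ccna2 by 0.45. The genes that set the inhibitory phosphorylation of Cdk1 also rose with the block, 5 of 5, and edgeR without it called 0 of them. They included both the activating phosphatases and the inhibiting kinases. Cdc25c, an activating phosphatase, was at 26.0, 18.0 and 16.2 CPM in controls and 44.3, 31.7 and 27.9 CPM in knockdown. Replicate 1 was again the highest of each group, and Cdc25c changed by 0.79 with the block (adjusted p = 4.36e-06, edgeR; 0.134 without it). Cdc25b changed by 0.50, and the inhibiting kinases Wee1 by 0.33 and Pkmyt1 by 0.37.

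The mitotic kinases and their activator rose in 4 of 4 with the block, in a fit that called 11.9% of all genes higher. Their median was 0.53, and edgeR without the block called 0 of them. Bora, the cofactor through which Aurka activates Plk1, changed by 0.60 (adjusted p = 2.22e-05 with the block, 0.154 without, edgeR), Aurka by 0.59, Aurkb by 0.48 and Plk1 by 0.45. Among 6 substrates and effectors of PP2A-B55, 4 rose with the block, and edgeR without it called 0. Prc1, which bundles spindle midzone microtubules, rose by 0.58. The anaphase-promoting complex activators Cdc20 and Fzr1 rose by 0.47 and 0.27, and the pocket protein Rbl1 by 0.44. Apart from Fzr1, these are genes of dividing cells, and the cycling-cell marker sum given beside Mastl moved with them. Cdk1, Ccnb1 and Aurkb are on both lists. Fzr1 averaged 71.0 CPM over the NPC controls and 74.5 CPM over the cortex controls, whereas Cdc20 averaged 113 and 9.29 CPM. The part of dividing cells in these changes was not tested.

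The other parts of the phosphatase did not move as a group. Among 12 further PP2A scaffold and regulatory subunits, 2 fell with the block, in a fit that called 24.7% of all genes. Ppp2r5e, a B56 subunit, fell by 0.22 (adjusted p = 0.00808 with the block, 0.113 without, edgeR). Strn, a striatin, fell by 0.19 (adjusted p = 0.0177 with the block, 0.291 without, edgeR). Of the related catalytic subunits, Ppp4c fell by 0.22 (adjusted p = 0.00836 with the block, 0.158 without, edgeR). The other, Ppp6c, rose by 0.21 (adjusted p = 0.0133 with the block, 0.134 without, edgeR). Of 3 PP2A inhibitors, Anp32a rose by 0.14 (adjusted p = 0.0460 with the block, 0.247 without, edgeR). Of 4 phosphatases and regulators upstream of Mastl, Ppp1cc rose by 0.16 (adjusted p = 0.0301 with the block, 0.336 without, edgeR).

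Ppme1, the methylesterase that removes the carboxymethyl group from the PP2A catalytic subunit, fell with the block. It was the 1 gene of 5 for assembly and methylation called there, in a fit that called 12.8% of all genes lower. Its level was 133, 122 and 144 CPM in NPC controls and 101, 83.3 and 100 CPM in knockdown. All knockdown libraries lay below all controls, with a log2 fold change of -0.49 (-0.72 to -0.25, adjusted p = 0.0604 without the block and 2.76e-05 with it, edgeR's quasi-likelihood test). In cortex Ppme1 changed by 0.04 (-0.10 to 0.19). The difference between its NPC and cortex changes was -0.52 and did not pass (adjusted p = 0.056, edgeR's quasi-likelihood test).

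**Figure D5:**
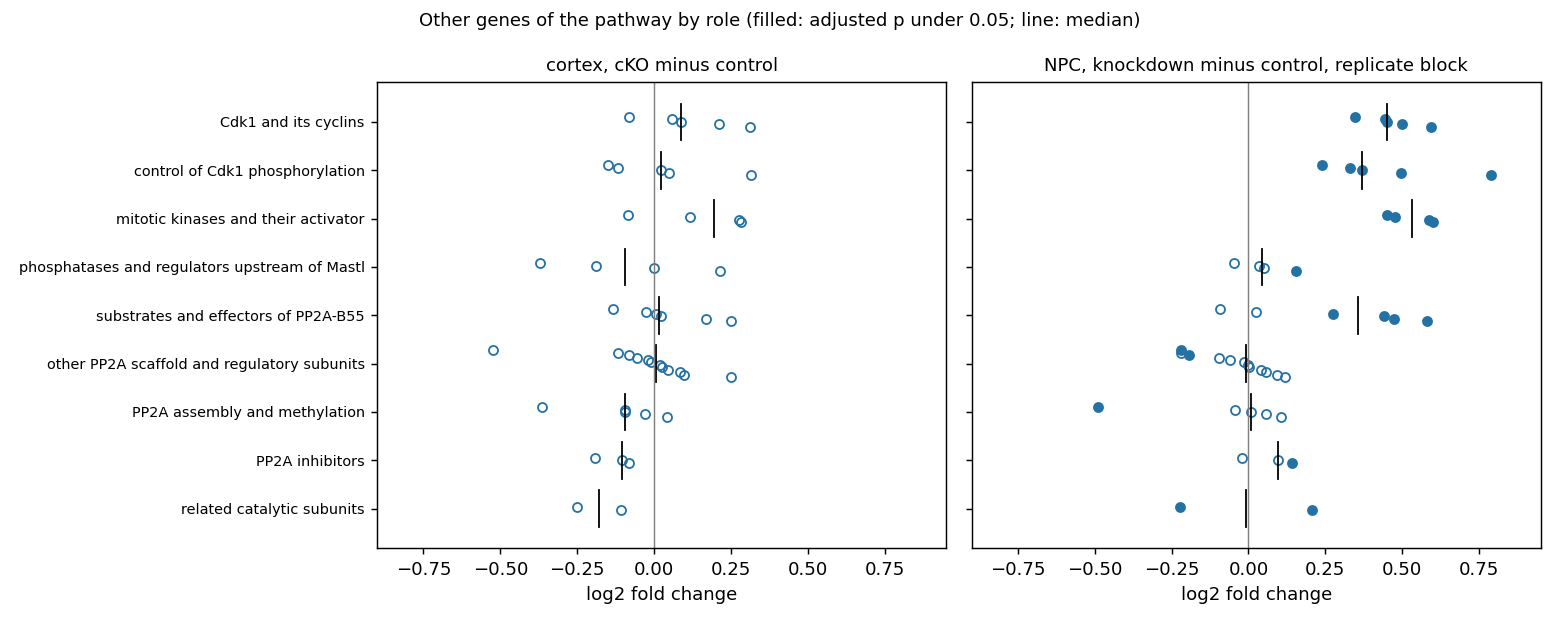
Log2 fold change (horizontal axis) of the 46 other genes by role, in cortex (left) and in NPC with the replicate block (right), with filled points for an adjusted p under 0.05 and a line at each role's median. The 3 roles at the top, of which the first also holds Cdk2, lie wholly above 0 in NPC, and Ppme1 is the lowest point there.

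Genes with a pattern most like that of Ensa were found by Pearson's r of log2 CPM over the 12 libraries, after the mean of each system was subtracted, among 9845 genes with at least 5 CPM on average in both systems. The 5 closest were Dhx29, a helicase of translation initiation (r = 0.97), Ftsj3, a ribosomal RNA processing factor (0.96), Prpsap1, a partner of phosphoribosyl pyrophosphate synthetase (0.96), Polb, the polymerase of base excision repair (0.95), and Pi4ka, a phosphatidylinositol kinase (0.95). None belongs to the Greatwall pathway. Dhx29 was at 49.9 to 52.4 CPM in control cortex, 31.3 to 35.2 CPM in cKO cortex, 56.1 to 63.2 CPM in control NPC and 60.5 to 64.2 CPM in knockdown NPC. Their log2 fold changes ranged from -0.78 (Prpsap1) to -0.40 (Ftsj3) in cortex and from -0.07 (Prpsap1) to 0.08 (Dhx29) in NPC. The genes were picked by their likeness to Ensa in the same libraries. Both r and these fold changes therefore follow from the choice, are a description and have no test.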

How the data were processed

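Counts per gene were deposited by the authors as one table of 34102 genes and 12 libraries. Reads were aligned with HISAT2 to mm10, per the submitters' processing notes, and for the counting program, its annotation and its use of strand the sources used here give nothing. RNA with a RIN above 8 was chosen for libraries, per the labels. Gene positions and exon lengths came from GENCODE (build GRCm38), in which 34065 of the 34102 identifiers and all 10 members were found, and promoters from RefSeq, with entries for 7 of 10 members.

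Counts were fitted per system with edgeR 4.0.16 in R 4.3.3 (TMM, filterByExpr, quasi-likelihood test, Benjamini-Hochberg over all genes tested, threshold 0.05), and the difference of differences in 1 fit of all 12 libraries. CPM and RPKM use TMM library sizes of each system. Intervals are 95% intervals. Alternatives were RLE factors, no filter, DESeq2 1.42.0, one fit of all libraries, a replicate block, each library left out, and for cortex the Ttr-rich libraries left out or a sex term. The block under other settings and the longest transcript as gene length were chosen after seeing the data. Shares were compared by exact permutation (scipy 1.17.1). Scripts were tested on simulated data.

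Whether replicate numbers pair libraries was checked by correlating deviations from group means over genes. Same-numbered NPC libraries gave r = 0.65, 0.63 and 0.61, which paired them, and cortex libraries gave -0.00, -0.21 and -0.04, which did not. The members and lists were chosen with earlier results of these data known. Named genes are the members, Srsf10, up to 4 genes per role of the pathway list with the smallest p among those called, and the 5 genes most like Ensa.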

Additional observations from a re-analysis of the deposited data

How the results depend on the processing

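Counts of calls depended on the settings more than fold changes did. Of the 10 members, 1 (Mastl) was called in NPC with no filter, with DESeq2 and in one fit of all 12 libraries, and 0 to 1 with a library left out. With the replicate block, which follows the pairing, 4 were called (also with RLE factors and with no filter), 3 in DESeq2, and 2 to 5 with a pair left out, Arpp19 and Ppp2r2a being gained without pair 1. In cortex the member count was 0 with the block and 0 to 1 with a library left out, Ensa being lost without cKO replicate 1 or 3. Nothing is read from the cortex count, because that comparison chose the set. The pathway list gave 1 call in cortex with DESeq2 (Igbp1, named after its value was seen). In NPC it gave 1 with no filter, 4 with DESeq2, 2 in one fit, 25 with the block or the block with RLE factors, 23 with the block in DESeq2, 26 with the block and no filter, and 19 to 29 with a pair left out. Over all genes, cortex gave 27 calls, and 156 with no filter, 308 with DESeq2, 49 in one fit, 1 with the block, 12 with a sex term and 0 to 28 with a library left out. NPC gave 270, and 951 with DESeq2, 654 in one fit, 3522 with the block, 2404 with the block in DESeq2, 3489 with the block and RLE factors, 3837 with the block and no filter, 47 to 304 with a library left out and 4376, 2170 and 1636 without pairs 1, 2 and 3. The difference of differences gave 242, and 707 with DESeq2, 604 with the block and 98 to 275 with a library left out. The cause of these shifts was not tested.

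Changes of sign occurred where values lay near 0. Ensa in NPC was -0.0028 without NPC control replicate 3, -0.0109 without knockdown replicate 3 (0.0428 at most with a library left out) and -0.0319 with the block and no pair 3. Ppp2r2b in NPC was -0.0356 without control replicate 2, -0.0893 without knockdown replicate 3 (0.0581 at most) and -0.0500 with the block and no pair 3. Ppp2r1a in NPC was 0.0170 without knockdown replicate 1 (-0.0313 at least) and 0.0087 with the block and no pair 1, and its difference between systems was 0.0430 without cortex control replicate 2 (-0.0870 at least) and 0.0122 without knockdown replicate 1. Mastl in NPC stayed between 0.73 and 1.07 over its 17 alternatives, and Ensa in cortex between -0.68 and -0.63 with a library left out. Where a fit leaves 2 libraries in a group, they are assumed to vary like the rest. Mastl in cortex rests on 140 to 328 counts in a library.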
